A study of Rattus norvegicus with 6 samples.

Results

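General capillary endothelial cells were taken from a single-cell RNA survey of rat lung by their marker genes, and 853 of 25547 cells met the rule. A member held at least 1 UMI (unique molecular identifier, a count of 1 captured mRNA molecule) of 2 or more of the 6 endothelial genes Cdh5, Cyyr1, Clec14a, Egfl7, Emcn and Sox17, and at least 1 UMI of Gpihbp1 or Plvap. It held no UMI of Ptprc, Gja5, Dkk2, Slc6a2, Vwf or Mmrn1, and a UMI of at most 1 of Car4, Apln and Ednrb. The Sprague Dawley rats of the study received bleomycin (BLM), a drug that injures the alveoli and leaves scarring, at 5 mg/kg through a tracheal tube, or the same volume of saline. Lungs of 3 BLM-treated rats and 3 control rats were washed with buffer through the right ventricle and digested 28 days later. A small piece of each lung was digested, so the cells stand for that piece and for what survived digestion. Each library is a separate rat by the labels, which give no batch or date.

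The capillaries of the alveolar wall hold aerocytes and general capillary cells. Aerocytes are thin cells that serve gas exchange and carry Car4, Apln and Ednrb, whereas general capillary cells set vascular tone, take up lipid and act as progenitors after injury. Gpihbp1 carries lipoprotein lipase to the capillary surface, and Plvap forms the diaphragms of endothelial openings. Apelin from aerocytes signals to the receptor Aplnr on general capillary cells, and Kit, a receptor tyrosine kinase, marks them in rodents.

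The members were 6, 11 and 42 cells of control replicates 1 to 3 and 167, 312 and 315 cells of BLM replicates 1 to 3. Their UMIs summed to 71272 in control rats, of which control replicate 1 gave 6277, and to 1346294 in BLM-treated rats. The median member held 914 UMIs in control rats and 1394 in BLM-treated rats. In the smallest library 1 UMI equals 159 CPM (a gene's UMIs relative to all UMIs of the members of that rat, scaled as usual for CPM), so control levels of single rats are coarse. Fewer cells of a type and less RNA per cell cannot be told apart in values summed over a rat.

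The members were chosen by the measured UMIs of the genes of the rule, so these genes are given without a test. Plvap was found in 98.3% of control members and 86.8% of BLM members, and Gpihbp1 in 11.9% and 38.9%. Members with Plvap and no Gpihbp1 thus made up 88.1% of the control members and 61.1% of the BLM members. Cdh5, the adhesion protein of endothelial junctions, was found in 84.7% and 74.6%, Cyyr1 in 79.7% and 93.5%, Clec14a in 91.5% and 77.1%, and Emcn in 57.6% and 85.1%. Aplnr, which the rule did not use, was found in 59.3% of control members and 26.2% of BLM members. Car4 had a UMI in 25.4% of the control members and 6.68% of the BLM members.

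At the edge of the rule, 6 control and 48 BLM members held exactly 2 of the 6 endothelial genes, with medians of 572.5 and 621.5 UMIs. Outside it, 2 control and 18 BLM cells met every other condition with 1 of the 6 genes, at medians of 376.5 and 468 UMIs. A further 11 control and 388 BLM cells lacked Gpihbp1 and Plvap and met the rest, and 12 control and 34 BLM cells held 2 or more of Car4, Apln and Ednrb. Vwf alone kept 34 control and 75 BLM cells out.

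Of the genes that define other vessels, Prox1, Selp and Bmx were at or near 0 in the members, while several others of these lists were not. The lymphatic regulator Prox1 had 0 UMIs in control members and 7 in BLM members (2, 2 and 3). The venous adhesion gene Selp had 0 UMIs in control members and 8, 21 and 15 in BLM replicates 1 to 3. The arterial gene Bmx had none in any rat. Lyve1, which lymphatic cells also carry, was found in 71.2% of control members and 4.66% of BLM members. The arterial ligand Efnb2 was found in 66.1% and 58.1%, and the arterial connexin Gja4 in 39% and 31.5%. Among venous genes, Slco2a1 was found in 57.6% and 37.7%, Amigo2 in 49.2% and 17%, and the receptor Ephb4 in 44.1% and 32%. In BLM-treated rats Lpl, lipoprotein lipase, stood at 1070 CPM in the members, 914 in aerocyte-like cells, 499 in venous and 83.6 in arterial cells, and Kit at 162, 80.1, 60.2 and 18.6 CPM.

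The rats gave 10538 control and 15009 BLM cells with 23608949 and 33444381 UMIs, and 314 barcodes occurred in more than 1 library. Of the members, 20 had such a barcode and 0 shared one with another member. Markers of other cells were also summed in the members. Alveolar type 2 markers summed to between 0 and 284 CPM in control rats and between 33.5 and 79.8 CPM in BLM-treated rats, and macrophage markers to between 0 and 682 and between 204 and 640.3 CPM. The 8 fibroblast markers were all at 0 in control members, where 3 UMIs equal 42.1 CPM over the group. They summed to between 25 and 550.3 CPM in BLM-treated rats, with 7 of 8 found and Col1a2 at 0. The 5 erythroid and platelet markers were at 0 in control members and reached 57, 4830 and 39.3 CPM in BLM replicates 1 to 3. Airway markers reached 1404 CPM in BLM replicate 3 and at most 341 CPM in the other rats. Lymphocyte, neutrophil and mesothelial markers were at 0 in control members and at no more than 154 CPM in any BLM-treated rat. Pericyte and smooth muscle markers lay between 0 and 105 CPM in control and between 30.4 and 245 CPM in BLM-treated rats. Alveolar type 1 markers lay between 956 and 1308 and between 1379 and 1409 CPM, mostly Clic5, with Ager, Akap5, Pdpn and Aqp5 at 0 in control members. Without members that held 5 or more UMIs of these lists, leaving aside alveolar type 1 genes, 206 genes passed the test of BLM-treated against control rats given below, against 212 with them. These were not all the same genes. Of the 212, 200 were tested in that fit and 178 passed in the same direction. Beyond such fits their part in the results was not tested.

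General capillary cells were a larger share of the cells of BLM-treated lungs. They made up 0.178%, 0.428% and 0.913% of all cells in control replicates 1 to 3 and 4.57%, 4.17% and 8.14% in BLM replicates 1 to 3. The groups did not overlap, with means of 0.507% ± 0.374 and 5.62% ± 2.18 (SD, n = 3 each) and a two-sided exact permutation p of 0.1, the smallest that 3 rats against 3 can give. The difference was 5.11 percentage points. Endothelial cells outside the rule (2 or more of the 6 genes, no Ptprc UMI) were also more frequent, at 132 of 10538 control and 770 of 15009 BLM cells. The larger share was thus not particular to the members. The rule needs UMIs of several genes and bars those of others, so cells were also thinned to a fixed depth before the rule was applied. Cells below that depth were left out, among them 1209 of control replicate 2 and 3074 of BLM replicate 2 at 1000 UMIs. Thinning can also remove UMIs of barred genes, so the thinned members are not the same cells. Control replicate 3 had 42 members as deposited and 49 at 500 UMIs. Thinned to 500 UMIs the shares were 0.621% ± 0.511 and 3.51% ± 1.34, thinned to 300 UMIs 0.368% and 1.86%, and thinned to 1000 UMIs 0.474% and 5.39%, each with an exact p of 0.1. Among cells without a UMI of the leukocyte gene Ptprc, the shares were 2.1% ± 1.63 and 13.4% ± 2.71. With Gpihbp1 required the shares were 0.0675% and 2.22%, from 7 control cells in all.

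Among endothelial cells, taken as cells with 2 or more of the 6 genes and no Ptprc UMI, the result depended on depth. General capillary cells were 27.3%, 29.7% and 31.8% of the endothelial cells of control replicates and 46.4%, 49.8% and 54.6% of those of BLM replicates, or 29.6% ± 2.28 against 50.2% ± 4.12 (exact permutation p = 0.1). Thinned to 500 UMIs the means were 38.1% ± 6.17 and 35.1% ± 2.51 (exact p = 0.4), and thinned to 300 UMIs 27.9% ± 16.3 and 25% ± 1.11 (exact p = 0.7). Thinned to 1000 UMIs they were 28.3% and 45.8% (exact p = 0.1). The control members after thinning to 300 UMIs numbered only 2 and 6 in the first 2 rats.

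**Figure D1:**
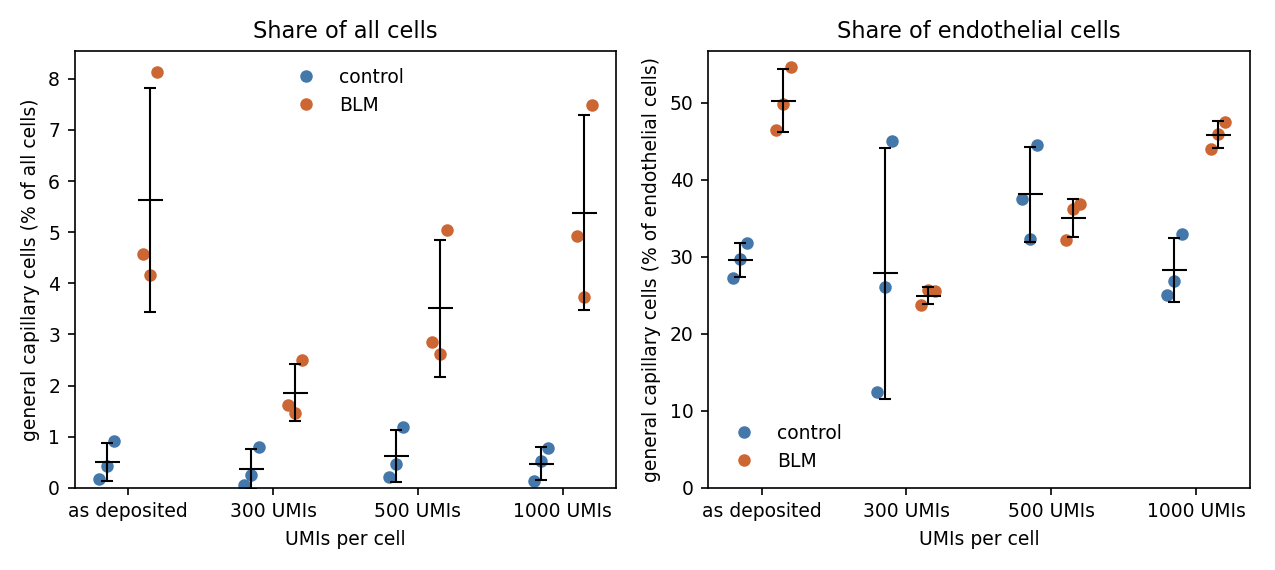
Share of general capillary cells per rat, in percent of all cells (left) and of endothelial cells (right). Shares are as deposited and after thinning to 300, 500 or 1000 UMIs, with cells below that depth left out. Points are rats and bars the mean with SD of 3. The groups are apart at every depth on the left, while on the right they overlap at 300 and 500 UMIs.

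Within the members, genes of the resting general capillary cell were mostly lower in BLM-treated rats. UMIs were summed per rat and tested with edgeR's quasi-likelihood test over 3343 genes, leaving out the 17 genes of the rule. Of these, 139 were higher (4.16%) and 73 lower (2.18%) at an adjusted p under 0.05, and the median log2 fold change was 0.11. The 3 BLM-treated rats all lay above the 3 control rats for 15.5% of the genes tested and all below for 10.7%. These shares over all genes tested are the background for the list counts and for the genes without overlap given below. Of the higher genes, 22 had no UMI in control members, 30 had 1 to 3, and 87 had more. Leaving out 1 rat gave 118 calls without control replicate 1, 138 without control replicate 2, 126 without BLM replicate 1 and 140 without BLM replicate 2, against 212 in all. Without control replicate 3, 192 genes were higher and 24 lower, and the median log2 fold change was 0.59. Thinned to 500 UMIs a cell, 92 of 985 tested genes passed.

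Of the 10 general capillary genes in the table, 8 were tested, and 5 were lower and 1 higher, with a median log2 fold change of -1.59. Tmem100, a membrane protein downstream of BMP signals in vessels, had 2071, 682 and 2173 CPM in control rats and 87.2, 88 and 161 CPM in BLM-treated rats. The groups did not overlap, and the log2 fold change was -3.68 (SE 0.31, edgeR adjusted p = 1.78e-18). The apelin receptor Aplnr had 1115, 1024 and 1034 CPM against 322, 149 and 254 CPM. Every BLM-treated rat was below every control rat, with a log2 fold change of -1.96 (SE 0.31, edgeR adjusted p = 9.91e-07). Kit had 1434, 398 and 675 CPM against 147, 123 and 204 CPM, a log2 fold change of -1.94 (SE 0.34, edgeR adjusted p = 9.65e-06). Hmcn1, which codes for a large extracellular matrix protein, had 234 ± 78.8 against 38.6 ± 4.76 CPM (SD, n = 3 each). Glp1r, the receptor of glucagon-like peptide 1, had 589 ± 118 against 233 ± 28.2 CPM, also with no overlap. Lpl went the other way, with 159, 512 and 295 CPM in control and 929, 1217 and 1018 CPM in BLM-treated rats (log2 fold change 1.77, SE 0.37, edgeR adjusted p = 2.65e-04). Cd93 had a log2 fold change of -0.39 (SE 0.27) and the semaphorin Sema3c one of 0.05 (SE 0.29), and neither passed the test.

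Control replicate 3 holds most control UMIs, and without it 2 of the 5 lower calls of this list were left. Without it the edgeR adjusted p was 0.053 for Kit, 0.283 for Hmcn1 and 0.666 for Glp1r, with log2 fold changes of -1.47, -1.78 and -0.49. Glp1r was also lost without control replicate 1 (0.0824) and control replicate 2 (0.0522). Tmem100 and Aplnr passed in all 18 alternative fits. Since most control members held Plvap and no Gpihbp1, the test was repeated on such members alone in both groups, and 5 of the list were lower and 1 higher there. With members thinned to 500 UMIs a cell, 6 of the list were tested, and 2 were lower and 1 higher.

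**Figure D2:**
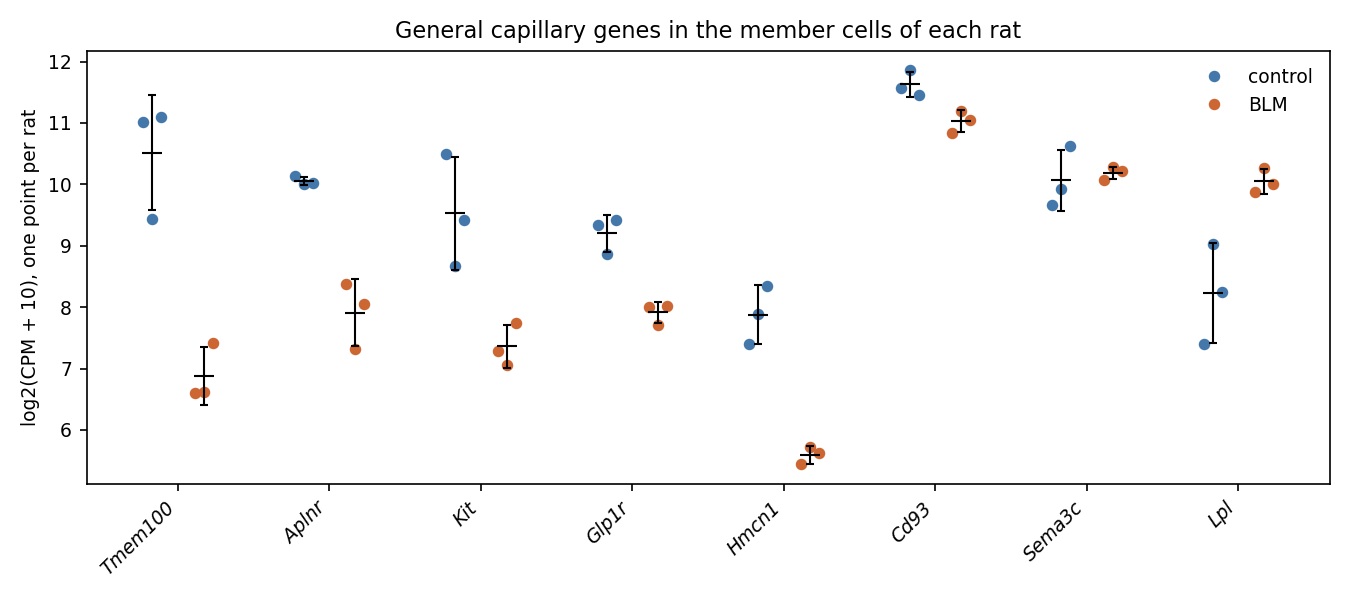
Levels of the 8 tested general capillary genes in the members of each rat, on a log2(CPM + 10) scale. Points are rats and bars the mean with SD of 3 rats. BLM-treated rats lie below control rats for the first 6 genes (for Cd93 without passing the test), overlap them for Sema3c and lie above them for Lpl.

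The lower genes with the largest changes reached beyond this list. Lyve1, a hyaluronan receptor, had 1752, 1535 and 1244 CPM in control and 80.5, 43 and 30.4 CPM in BLM-treated rats, a log2 fold change of -4.70 (SE 0.33, edgeR adjusted p = 1.07e-23). It had UMIs in 42 of 59 control members and 37 of 794 BLM members. Gpx2, a glutathione peroxidase, had 956, 682 and 1160 CPM against 23.5, 38.9 and 19.7 CPM, with a log2 fold change of -4.99 (SE 0.37, edgeR adjusted p = 2.46e-22). Cyp1a1, a cytochrome induced by the aryl hydrocarbon receptor, had 319, 625 and 337 CPM against 0, 16.4 and 14.3 CPM. Slc29a1, a nucleoside transporter, had 1226 ± 600.2 against 135 ± 6.01 CPM, and Hpgd, which breaks down prostaglandins, 564 ± 169.5 against 68.5 ± 10.3 CPM. The ranking took only called genes without overlap between groups, so their lack of overlap is no result. Over all genes tested, 10.7% had all BLM-treated rats below all control rats. Mfap2, a microfibril protein, had 17 UMIs in control members and 5 in BLM members, and Cytl1, a secreted cytokine-like protein, 16 and 18. Serpina1, Abcb4, Gna14, Ackr4, Bank1 and Ubash3b completed the 15 lower genes, at means of 126 to 474 CPM in control and 11.2 to 39.7 CPM in BLM-treated rats. Without control replicate 3 the adjusted p of Gna14 was 0.0818, of Ackr4 0.0784, of Bank1 0.284 and of Ubash3b 0.0959. Ackr4 was also lost without control replicate 2 (0.137), Bank1 without control replicates 1 (0.111) and 2 (0.112), and Ubash3b without control replicates 1 (0.0659) and 2 (0.197). Gpx2, Cyp1a1, Mfap2, Cytl1, Serpina1, Gna14, Ackr4, Bank1 and Ubash3b, and Hmcn1 above, passed the filter on low counts through the control rats alone. Their p-values are therefore no independent support. In the fit without that filter, Bank1 (edgeR adjusted p = 0.0838) and Ubash3b (0.0542) did not pass.

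Genes that mark capillaries of injured lung were mostly higher. Of the 14 genes listed 11 were tested, and 7 were higher and 1 lower, with a median log2 fold change of 1.54. Ntrk2, a neurotrophin receptor, had 159, 56.9 and 253 CPM in control and 1032, 1041 and 1356 CPM in BLM-treated rats, a log2 fold change of 2.71 (SE 0.41, edgeR adjusted p = 3.02e-07). Sparcl1, a matrix-associated protein, had 478, 909.8 and 527 CPM against 3999, 5370 and 5349 CPM (log2 fold change 3.11, SE 0.34, edgeR adjusted p = 2.93e-12). Cxcl12, the chemokine ligand of the receptor Cxcr4, had 0, 1 and 1 UMIs in control and 266, 517 and 500 in BLM-treated rats. Its pooled level was 34 times that of control, with a 95% counting interval from 9.38 to 281 (edgeR adjusted p = 7.81e-11). Aqp1, a water channel, had 536 ± 121 against 1533 ± 92.7 CPM, and Cdkn1a, an inhibitor of the cell cycle, 219 ± 246 against 1112 ± 86.1 CPM. Procr, the receptor of protein C, had 1 UMI in control members and 282 in BLM members, a ratio of 14.9 with an interval from 2.66 to 592. Ackr3, which removes CXCL12, had 1190 ± 923 against 3379 ± 383 CPM. Amigo2, an adhesion protein, was the lower gene, with 727 ± 418 against 152 ± 27.3 CPM. The groups did not overlap for any of these 8 genes.

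Ntrk2, Sparcl1, Cxcl12 and Aqp1 passed in all 18 alternative fits. Ackr3 was lost by DESeq2 (adjusted p = 0.125) and without control replicate 1 (edgeR adjusted p = 0.068), control replicate 2 (0.0821) or BLM replicate 1 (0.0569), and Amigo2 without control replicate 3 (0.247). Procr did not pass when members with a UMI of Car4, Apln or Ednrb were left out (0.109), nor Cdkn1a after thinning (0.0617). The study names Ntrk2 and Cxcl12 from these samples, so this list is not independent evidence of its direction.

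Each of the 15 genes with the largest fitted rise among those without overlap had no UMI in the 59 control members, so only lower bounds can be given, set against 3 UMIs over the control group. Tm4sf1, a tetraspanin-like protein of growing endothelium, had 1368, 969.6 and 576 CPM in BLM-treated rats and was at least 21.2-fold higher (edgeR adjusted p = 1.24e-11). Rgs16, a brake on G protein signals, was at least 10.8-fold higher, the histone gene Hist1h2bcl1 at least 9.62-fold, RGD1565355 at least 9.35-fold, and the nucleoside transporter Slc28a2 at least 7.66-fold. Mgp, an inhibitor of calcification that is abundant in arterial cells, was at least 6.64-fold higher, and 91 of its 376 UMIs lay in 1 cell. Adamts4, a matrix protease, was at least 6.18-fold higher and Ramp3, a partner of the receptor Calcrl, at least 4.45-fold. Rbm18, Spty2d1, Aif1l, Timp3, Spsb1, Ibsp and Cflar had bounds between 2.08-fold and 3.05-fold. Mgp lost the call without control replicate 1 (edgeR adjusted p = 0.0619). Rbm18, Spty2d1, Aif1l, Timp3, Spsb1, Ibsp and Cflar lost it without control replicate 3, at adjusted p between 0.0871 and 0.198. The last 5 of these lost it without control replicate 1, at 0.0824 to 0.116, and Spsb1, Ibsp and Cflar without control replicate 2, at 0.0543 to 0.0814. The other 7 genes kept it in every alternative that tested them, which was 13 of 18 for Ramp3, 15 for Adamts4 and 17 for RGD1565355. With no control UMI, all of these genes passed the filter on low counts through the BLM-treated rats alone. The same holds for Cxcl12 and Procr above and for Bnip3, Mecom and Hmox1 below, which had 1 or 2 control UMIs. The p-values of such genes are no independent support.

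Apold1, an early response gene of endothelium, had 0, 171 and 295 CPM in control and 2809, 3028 and 2826 CPM in BLM-treated rats (log2 fold change 3.78, SE 0.40, edgeR adjusted p = 2.99e-13). Srpx had 132 ± 162 against 702 ± 66.9 CPM, with no overlap. Both passed in all 18 alternative fits.

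**Figure D3:**
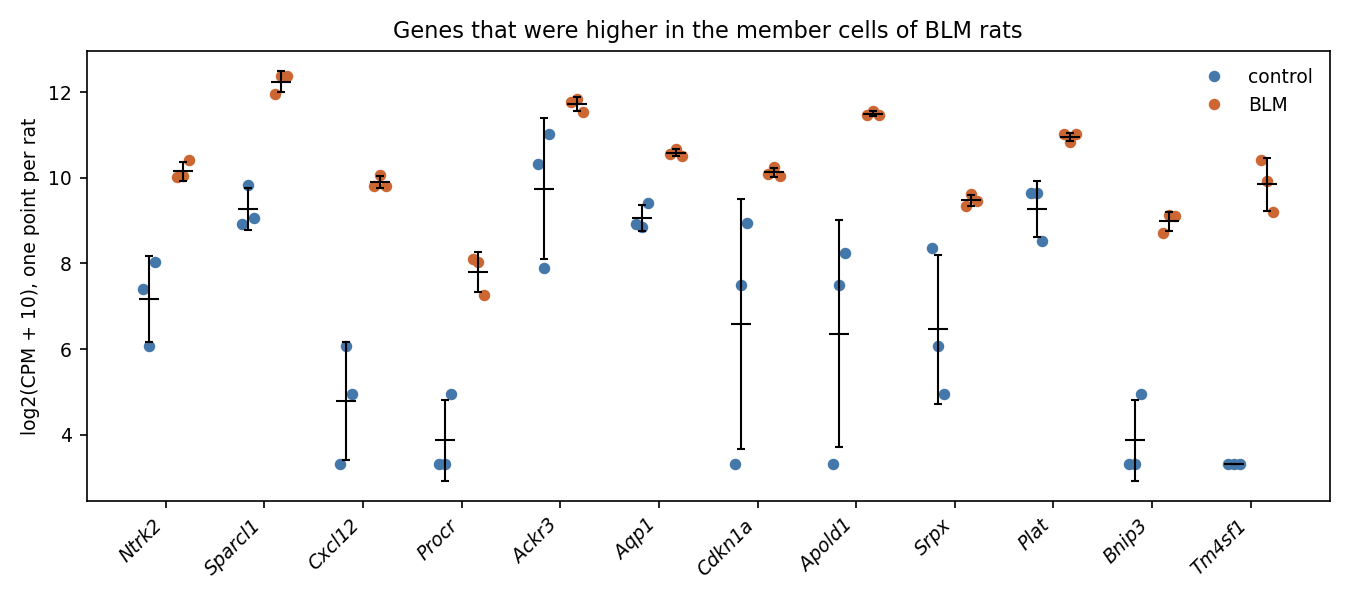
Levels in the members of each rat of the 7 higher genes of the injured capillary list and of Apold1, Srpx, Plat, Bnip3 and Tm4sf1, on a log2(CPM + 10) scale. Points are rats and bars the mean with SD of 3. The BLM-treated rats lie above all control rats for each gene, and Tm4sf1 is at 0 in every control rat.

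Most general endothelial genes did not pass the test, as was so over all genes tested. Of 22 tested pan-endothelial and junction genes 0 were higher and 1 lower, with a median log2 fold change of -0.24. Over all genes tested 4.16% were higher and 2.18% lower, so this count is no trait of endothelial genes. At an unadjusted p under 0.05, 3 were higher and 3 lower, and DESeq2 called 0 higher and 1 lower. Without control replicate 3, 4 were higher and 0 lower. The lower one was Calcrl, the receptor of adrenomedullin, with 3823, 2445 and 4535 CPM in control and 818, 1289 and 1266 CPM in BLM-treated rats (log2 fold change -1.50, SE 0.27, edgeR adjusted p = 1.89e-05; 0.193 without control replicate 3). Of 9 lung endothelial transcription factors 1 was higher and 2 lower. Mecom had 1 control UMI and a pooled ratio of 19 (interval 3.38 to 751, edgeR adjusted p = 2.58e-04). Foxf1, which lung endothelium needs, had 2916 ± 717 against 1135 ± 60 CPM, and Epas1, hypoxia-inducible factor 2 alpha, 12239 ± 1313 against 4881 ± 144 CPM. Without control replicate 3 neither passed (0.427 and 0.174), and Epas1 was also lost without control replicate 2 (0.212). Of 7 tested genes of VEGF and angiopoietin signalling 0 passed by edgeR or DESeq2, and 2 had an unadjusted p under 0.05 by edgeR, both lower. Vegfa had a log2 fold change of -0.78 (SE 0.29), and 183 of its 206 control UMIs came from control replicate 3. The VEGF receptor Kdr had one of -0.47 (SE 0.32).

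Of 7 Notch genes 2 were higher, beside 4.16% of all genes tested. The Notch target Hes1 had 1994 ± 1282 against 4281 ± 604 CPM and Nrarp, a target that dampens Notch, 293 ± 221 against 888 ± 137 CPM. Neither passed by DESeq2 (0.272 and 0.0795). Hes1 was lost without control replicate 1 (edgeR adjusted p = 0.136), control replicate 2 (0.11), BLM replicate 1 (0.154) or BLM replicate 3 (0.053). Nrarp was lost without control replicate 1 (0.0967), control replicate 2 (0.166) or BLM replicate 1 (0.0732).

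The lists of other vessel types held few tested genes. Of 6 tested aerocyte genes 0 passed by edgeR or DESeq2, and 1 was higher at an unadjusted p under 0.05. Of 5 arterial genes Mgp was higher and Efnb2 lower, the latter with 1317 ± 591 against 721 ± 34.7 CPM and an adjusted p of 0.0473, which was lost in 13 of 18 alternatives and turned to a log2 fold change of 0.27 without control replicate 3. Of 4 venous genes Amigo2 and the prostaglandin transporter Slco2a1 were lower, with a median log2 fold change of -1.10 over the 4. Of the 6 lymphatic genes only Lyve1 was tested, and it was lower. Slco2a1 had 319, 1251 and 1202 CPM against 449, 374 and 292 CPM, so its groups overlapped, and it was lost without control replicate 3 (0.296) and by DESeq2 (0.0724).

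Among 13 tested angiocrine factors, which endothelium sends to its neighbours, 4 were higher and 1 lower, with a median log2 fold change of 0.99. Cxcl12 is given above. Ccn1, a matricellular protein, had 3 UMIs in control and 615 in BLM members, a ratio of 10.9 (interval 3.7 to 52.8, edgeR adjusted p = 1.01e-05). Ccn2, connective tissue growth factor, had 98 ± 70.4 against 282 ± 96.4 CPM, and Hbegf, a ligand of the EGF receptor, 219 ± 246 against 775 ± 61.1 CPM. Il33, an alarmin, was the lower one, with 1274, 682 and 1160 CPM against 640.3, 438 and 172 CPM. By DESeq2 Ccn2 (0.071), Hbegf (0.1) and Il33 (0.359) did not pass. Ccn2 was lost without control replicate 3 (0.168). Il33 was lost without control replicate 1 (0.264), control replicate 3 (0.637) or BLM replicate 3 (0.0874). Hbegf was lost without control replicate 1 (0.105), control replicate 2 (0.154), BLM replicate 1 (0.0731) or BLM replicate 2 (0.061).

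Among 12 vascular tone genes 3 were higher and 3 lower. Cav1, the coat protein of caveolae, had 1115, 1763 and 1624 CPM in control and 2896, 3175 and 2956 CPM in BLM-treated rats, with a log2 fold change of 1.10 (SE 0.29, edgeR adjusted p = 0.00711). Nos3, the endothelial nitric oxide synthase, had 0, 0 and 5 UMIs against 20, 31 and 47, at log2 fold change 0.19 (SE 0.72). No difference of Nos3 was detectable at this depth. Ddah1, which clears an inhibitor of nitric oxide synthesis, had 264 ± 66.7 against 64.1 ± 22.5 CPM and was lost without any control replicate (0.175, 0.23 and 0.25) and without BLM replicates 1 (0.0897) and 3 (0.0918). The other genes called here were Aqp1, Ramp3, Aplnr and Calcrl.

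Among 8 genes of coagulation and fibrinolysis 2 were higher and 1 lower. Plat, tissue plasminogen activator, had 797, 796 and 359 CPM against 2065, 1833 and 2064 CPM (log2 fold change 2.04, SE 0.34, edgeR adjusted p = 3.41e-06). Tfpi, an inhibitor of the tissue factor pathway, had 637, 512 and 506 CPM against 121, 63.4 and 80.5 CPM (log2 fold change -2.47, SE 0.39, edgeR adjusted p = 5.85e-07). Procr was the other higher gene. Plat and Tfpi passed in all 18 alternative fits.

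Of 11 tested genes of glycolysis and hypoxia 5 were higher and 0 lower by edgeR, 4 and 0 by DESeq2, and 7 and 1 at an unadjusted p under 0.05 by edgeR, with a median log2 fold change of 1.80, and 8 had all BLM-treated rats above all control rats. Bnip3, a mitochondrial protein induced by low oxygen, had 0, 0 and 1 UMIs against 123, 269 and 301, a ratio of 36.7 (interval 6.56 to 1451, edgeR adjusted p = 2.16e-07). The glycolytic enzymes had 265 ± 173 against 1140 ± 53.3 CPM for Aldoa, 114 ± 52.3 against 463 ± 54.1 CPM for Ldha, and 94.2 ± 86.1 against 445 ± 146 CPM for Pgk1. Ndrg1 was called with overlapping groups, since control replicate 1 had 319 CPM and BLM replicate 1 had 261 CPM. Pgk1 was lost without control replicate 1 (0.0756) or BLM replicate 1 (0.0722). Thinned to 500 UMIs a cell, Bnip3 alone of these calls was left.

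Of 14 tested genes of oxidative defence Hmox1 and Sod2 were higher and Gpx2 lower. By DESeq2 Hmox1 (0.127) and Sod2 (0.0795) did not pass. Sod2, the mitochondrial superoxide dismutase, had 194 ± 213 against 810.0 ± 160.2 CPM and was lost without control replicate 1 (0.0692), control replicate 2 (0.0901) or BLM replicate 1 (0.0537). Hmox1, which degrades heme, had 1 control UMI and 165 in BLM members, and was lost without any single control replicate (0.116, 0.151 and 0.0973). Of 15 interferon genes only Ifitm3 passed, with 608 ± 260.1 against 1723 ± 203 CPM, where 4.16% of all genes tested were higher. Of 7 antigen presentation genes 0 passed by edgeR or DESeq2, and 0 had an unadjusted p under 0.05. Ccnd1, cyclin D1, was the single cell cycle gene of 5 tested that passed, with 2122 ± 489 against 478 ± 109 CPM (log2 fold change -2.04, SE 0.28, edgeR adjusted p = 6.88e-09).

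Rgcc, a regulator of the cell cycle that hypoxia raises, was higher among 8 tip cell genes together with Ramp3, at 68.2 ± 74.5 against 731 ± 99 CPM. Cd9, a tetraspanin, was higher among 7 adhesion and chemokine genes, at 1615 ± 302 against 2857 ± 216 CPM, and was lost without control replicate 2 (0.137). Of 4 tested matrix genes Col3a1 and Mgp were higher. Of the 393 UMIs of Col3a1 in BLM members, 247 lay in 1 cell of BLM replicate 2, the rat with the most fibroblast marker UMIs, and the call was lost without control replicate 1 (0.202) and by DESeq2 (0.0868). Of 5 tested fatty acid genes Lpl alone passed.

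**Figure D4:**
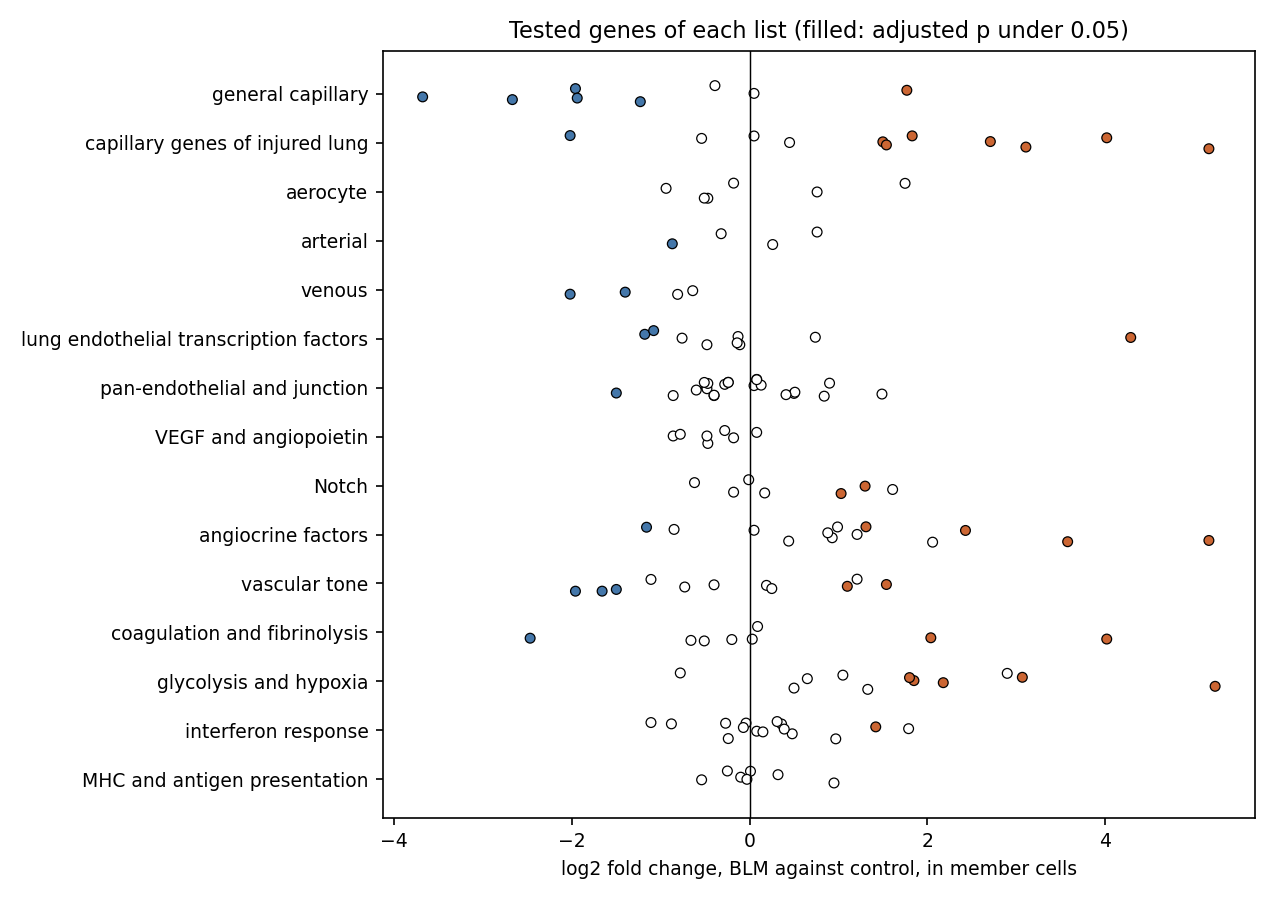
Log2 fold changes in the members, BLM-treated against control, for the tested genes of 15 lists, each point 1 gene and filled where the adjusted p is under 0.05. The 2 genes without a control UMI are left out. The general capillary list lies mostly below 0, and the injured capillary and glycolysis lists mostly above.

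The share of members with a UMI was also compared at equal depth. With cells of at least 500 UMIs thinned to 500 and the others left out, 55 control and 751 BLM members remained. The control members were 5, 11 and 39 cells of control replicates 1 to 3. Shares pooled over the control rats thus stand mostly for 1 rat. Ntrk2 was found in 3.64% of these control members and 45% of the BLM members, Sparcl1 in 27.3% and 87.7%, and Apold1 in 7.27% and 51.8%. Cxcl12 was found in 0 of 55 control members and in 27.2% of BLM members. Were the 55 cells independent, which cells of 1 rat are not, a control share of up to 5.45% would be allowed. Tmem100 was found in 60% and 7.06%, Aplnr in 40% and 12.3%, Lyve1 in 43.6% and 1.86%, and Kit in 21.8% and 7.06%. B cells, which should lack these genes, had medians of 618 and 661 UMIs. In B cells of BLM-treated rats thinned the same way, Ntrk2, Cxcl12, Tmem100, Aplnr and Kit were at 0, Lyve1 at 0.372%, Sparcl1 at 0.743% and Apold1 at 2.23%. Limits and shares cover counting error only and not the spread between rats.

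Within BLM-treated rats the members with and without Gpihbp1 were set side by side. Members with and without a Gpihbp1 UMI held like numbers of UMIs, with medians of 1517, 1319 and 1461 against 1410.5, 1300 and 1400 in BLM replicates 1 to 3. The following genes were chosen after their values were seen and are a description. Lpl was at 1377, 1580 and 1368 CPM in members with Gpihbp1 and at 692, 1005 and 734 CPM in members without. Cxcl12 ran the other way, at 475, 421 and 372 CPM against 1112, 1430 and 1317 CPM. Apold1 was at 1910, 2140 and 1960 CPM against 3284, 3547 and 3526 CPM, and Tm4sf1 at 766, 499 and 240 CPM against 1686, 1245 and 848 CPM. Kit was at 204, 177 and 256 CPM against 118, 90.8 and 162 CPM. Ntrk2 did not keep 1 order, at 1280, 1037 and 1500 CPM against 902, 1044 and 1239 CPM.

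The BLM difference of most genes did not pass a test against that in the other endothelial cells of the same rats, which were 132 control and 770 BLM cells. The make-up of these other cells also differed between the groups. Of all endothelial cells, aerocyte-like cells were 10.8% ± 7.92 in control and 3.63% ± 0.553 in BLM-treated rats, arterial cells 18% ± 4.1 and 7.73% ± 0.364, and venous cells 11.3% ± 3.9 and 2.82% ± 0.542 (SD, n = 3 each, exact permutation p = 0.1 for each). A change of level within the other cells and a change of their make-up cannot be told apart in the interaction. In an edgeR interaction test with the rat as a block, 20 of 5047 genes passed (0.396%), with 17 estimates above 0 and 3 below. Lyve1 had the smallest p. It went from 1511 to 51.3 CPM in the members and from 1631 to 817 CPM in the other endothelial cells, an interaction of -3.73 on the log2 scale (SE 0.34, edgeR adjusted p = 1.03e-24). Pooled over the rats of a group, Lyve1 also fell from 872 to 127 CPM in aerocyte-like cells. It fell from 1801 to 413 CPM in venous and from 893 to 514 CPM in arterial cells. Lymphatic cells, which carry Lyve1, were 2.31% ± 2.79 of endothelial cells in control and 3.89% ± 2.33 in BLM-treated rats (exact permutation p = 0.4). Tm4sf1 went from 0 to 971 CPM in the members and from 1140 to 2533 CPM in the others, where it was also higher (edgeR adjusted p = 0.00157). Mgp went from 0 to 302 CPM in the members and from 2526 to 2441 CPM in the others. Apold1 went from 155 to 2887 CPM and from 848 to 2849 CPM, with an interaction of 2.47 (SE 0.41, edgeR adjusted p = 2.15e-06). Srpx had an interaction of 2.93 (SE 0.64) and Ackr3 one of 1.26 (SE 0.28). Kitlg, the ligand of Kit, went from 260.5 to 451 CPM in the members and from 523 to 372 CPM in the others (interaction 2.14, SE 0.45, edgeR adjusted p = 0.00118). Emp2, an aerocyte gene, went from 67.2 to 130.5 CPM and from 401 to 154 CPM. Mfap2 had an interaction of -4.08 (SE 0.91). Without members and other cells that held 5 or more UMIs of other cell lists, the interaction was 7.02 for Mgp (edgeR adjusted p = 0.293), 2.23 for Srpx (0.271) and 0.55 for Ackr3 (0.777), and none of these passed. Against arterial and venous cells alone it did not pass for Mgp (0.1), Emp2 (0.162), Kitlg (0.831) or Mfap2 (0.732). Without control replicate 3 that of Emp2 (0.267), Kitlg (0.416) and Srpx (0.212) did not, nor that of Ackr3 without control replicate 2 (0.24) or BLM replicate 1 (0.0627), nor that of Mfap2 without BLM replicate 2 (0.213).

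For the airway gene Scgb1a1, 1 cell held most of the UMIs, and no fit left out that cell alone. Of its 931 UMIs in BLM members, 737 lay in 1 cell of BLM replicate 3, and without that rat the interaction was 2.13 (edgeR adjusted p = 0.153). Lyve1 and Tm4sf1 passed in all 18 alternative fits of the interaction. By DESeq2, and without the rat block, 4 genes passed each.

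Several genes of the members had like differences in the other endothelial cells. Ntrk2 had log2 fold changes of 2.71 in the members and 2.67 in the others, and an interaction of 0.08 (SE 0.63). Aplnr had log2 fold changes of -1.96 and -1.97, Tmem100 of -3.68 and -2.91, Slc29a1 of -2.78 and -3.02, and Hpgd of -3.04 and -3.15. For Cxcl12, at 5.17 and 2.16, the interaction of 3.15 (SE 0.87) had an edgeR adjusted p of 0.0639. A p that misses the threshold does not show that both classes differ alike.

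**Figure D5:**
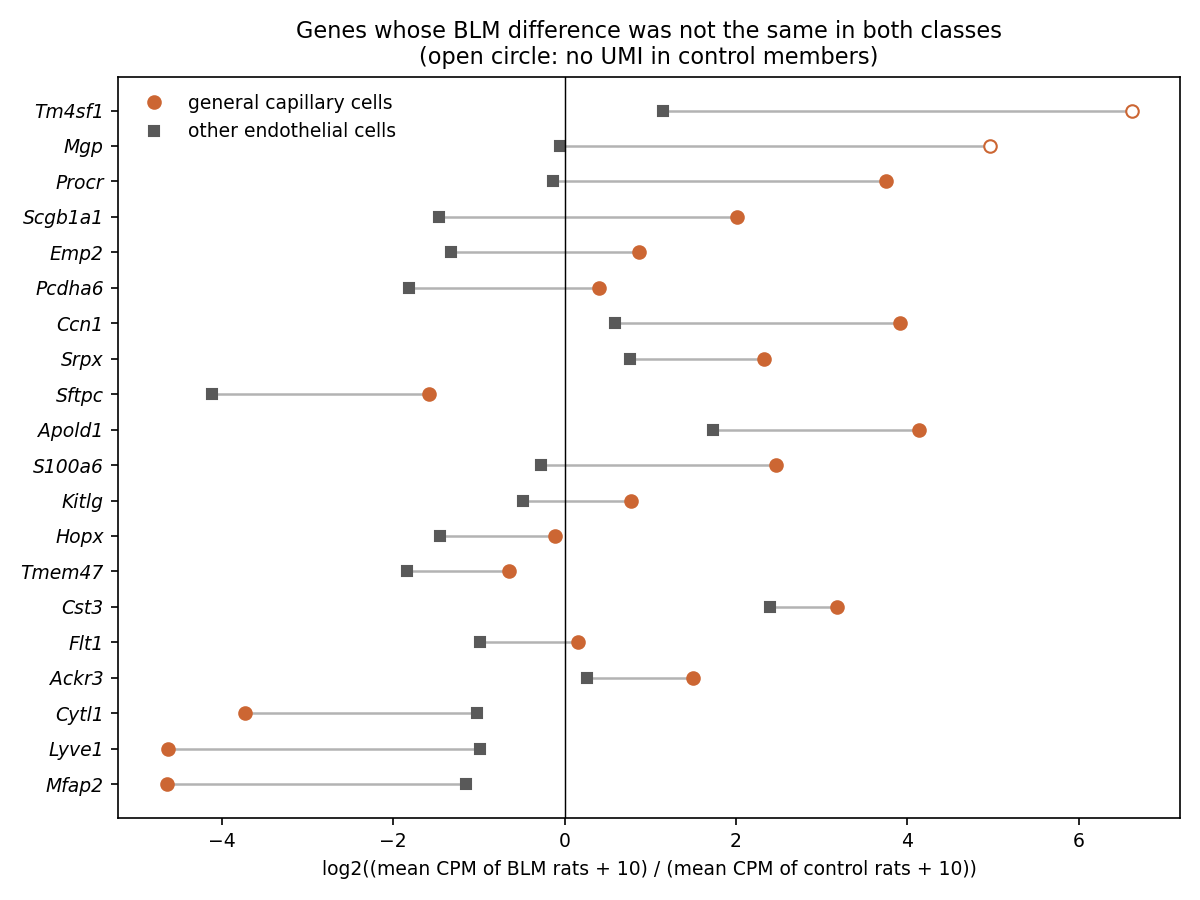
Difference between BLM-treated and control rats in the members (circles) and in the other endothelial cells (squares) for the 20 genes past the interaction test, as the log2 ratio of mean CPM + 10. Open circles mark Tm4sf1 and Mgp, with no UMI in control members. Lyve1, Mfap2 and Cytl1 lie further below 0 in the members, and the other genes lie further to the right in the members.

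In BLM-treated rats some genes outside the rule were higher in the members than in the other endothelial cells pooled, given here as a description. Lpl had 1054 ± 148 against 486 ± 14.8 CPM, Ntrk2 1143 ± 184 against 555 ± 118 CPM, and the sodium channel gene Scn7a 842 ± 202 against 382 ± 125 CPM. The aerocyte-like cells stood near the members for the first 2 of these genes. Pooled over BLM-treated rats, Ntrk2 was at 1170 CPM in the members, 1261 in aerocyte-like, 241 in venous and 37.1 in arterial cells, and Lpl at 1070 and 914 CPM in members and aerocyte-like cells. The unconventional myosin Myo10 had 308 ± 33.5 against 111 ± 54.4 CPM, B4galt6 85.5 ± 4.51 against 30.9 ± 14.2 CPM, Endou 151 ± 32.5 against 62.5 ± 11.3 CPM, and Nell1 92.2 ± 12.1 against 38.3 ± 13.9 CPM. Pooled as above, members and aerocyte-like cells had 84.7 and 66.7 CPM of B4galt6, and 156 and 120.1 CPM of Endou. They had 882 and 587 CPM of Scn7a, 313 and 140.1 CPM of Myo10, and 90.6 and 33.4 CPM of Nell1. Glycam1 had 158 UMIs, all in 1 cell of BLM replicate 3. Scgb1a1 had 63.7, 259.8 and 1404 CPM in the members of BLM replicates 1 to 3 and 126, 40.9 and 86.8 CPM in the other cells. Most of its UMIs in the members lay in the cell named above.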

How the data were processed

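Lung cells of 3 control and 3 BLM-treated rats were profiled in microwells with the BD Rhapsody system. The authors deposited UMI counts, whole numbers that are not normalized, per gene and cell. The build named in the submitters' notes is mm9 although gene names are those of the rat, while for the aligner, counting program and cell filter the entry is "not given in the sources used here". Cell names end in N1 to N3 or F1 to F3, read as control and BLM replicates 1 to 3 because the cells of N and of F add up to the group totals the study states. Values lie 1 field right of their gene name, and the names stop at Zfp692, which has no values. Genes after it, and Pecam1, Cd36, Klf2 and the immediate early genes but Fosl1, were not analysed here. No doublet caller was run.

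The members and lists were chosen with earlier results of these data known. UMIs of the members were summed per rat and tested with edgeR 4.0.16 (R 4.3.3) using glmQLFit and glmQLFTest. Low genes were removed by filterByExpr, libraries were scaled by TMM, and p-values were adjusted (Benjamini-Hochberg, 0.05) over all genes tested but the 17 of the rule. The interaction was fitted on the members and the other endothelial cells with the rat as a block. Rats with under 5 member cells were dropped from a fit. For shares the exact permutation test was two-sided. The fits were tested on simulated data.

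Named are the 15 genes with the largest change in each direction among called genes without overlap at 50 CPM or more, all tested general capillary genes, up to 5 genes a list by smallest p, Ntrk2, Cxcl12, Nos3 and Cav1, the 10 genes highest in members against other endothelial cells, and the 10 with the smallest interaction p. The text gives the called ones of the lists. The alternatives comprised RLE scaling, DESeq2 1.42.0, fits with all genes, a replicate block, each rat left out, stricter members and thinned cells. A fold against a group without UMIs is set against 3 UMIs over that group. Intervals cover counting error only.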

Additional observations from a re-analysis of the deposited data

Results flagged for a closer look

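In 20 genes the difference between BLM-treated and control rats passed an edgeR test of whether it differed between general capillary cells and the other endothelial cells. On the log2 scale the interaction was -3.73 for Lyve1, -4.08 for Mfap2 and -2.69 for Cytl1, the 3 with the lower value in the members. It was 9.48 for Tm4sf1 and 8.81 for Mgp, which had no UMI in control members, so that these fitted values are no bounds. It was 2.47 for Apold1, 3.43 for Emp2, 2.14 for Kitlg, 1.26 for Ackr3, 2.93 for Srpx, 3.98 for Procr, 1.98 for Hopx, 2.94 for Ccn1 and 2.41 for S100a6. It was 3.19 for Pcdha6, 1.26 for Cst3, 1.26 for Flt1 and 1.67 for Tmem47.

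The interaction was 3.66 for the airway gene Scgb1a1 and 2.92 for the surfactant gene Sftpc, both markers of other cells. Without cells that held 5 or more UMIs of other cell lists it was 0.75 for Scgb1a1 (edgeR adjusted p = 0.966), 0.66 for Sftpc (0.987) and 1.08 for S100a6 (0.936).

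Cst3 passed in 2 of 18 alternatives, Flt1 in 3, Sftpc in 4 and Tmem47 in 5. Cytl1 and S100a6 passed in 8 each, Pcdha6 in 10 of 17, Procr, Hopx and Ccn1 in 11 each, Ackr3 in 12 and Scgb1a1 in 13. Kitlg, Srpx, Mgp and Mfap2 passed in 14 each, Emp2 in 15, Apold1 in 17, and Lyve1 and Tm4sf1 in 18. Cytl1 did not pass without control replicate 1 (edgeR adjusted p = 0.0619), 2 (0.121) or 3 (0.0615), nor without BLM replicate 2 (0.145) or 3 (0.0536).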

How the results depend on the processing

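Of 74 named genes called, 33 passed in every alternative that tested them and 41 were lost in at least 1. DESeq2 passed 55 of the 74. The 212 calls became 115 with the replicate block, 124 without members holding Car4, Apln or Ednrb, 92 after thinning, and 118 to 216 with a rat left out. No filter gave 195 higher and 35 lower genes, against 139 and 73. No gene passed in opposite directions in the reported fit and an alternative, though Efnb2, which passed, changed sign in 1. Same-numbered rats correlated at -0.0162, -0.0435 and 0.0123 in their deviations from the group mean. With so few control members this cannot tell whether same-numbered rats were paired, and the labels do not say. Under the replicate block Cav1 had an adjusted p of 0.0543. The 20 interaction calls became 4 with DESeq2, 4 without the rat block, 12 with arterial and venous cells as the other class, 12 with members of Plvap and no Gpihbp1, and 12 to 30 with a rat left out. The share among endothelial cells differed by -2.90 percentage points thinned to 300 UMIs and -3 thinned to 500 UMIs, against 20.6. Directions turned, with the cause not tested, for Cd93 without a filter (0.08), Sema3c with a rat left out (-0.03 to 0.98, below 0 without BLM replicate 2 or 3) and in members of Plvap and no Gpihbp1 (-0.13), Nos3 with a rat left out (-0.11 without control replicate 2 to 7.33), Efnb2 (-0.94 to 0.27) and Vegfa (-0.97 to 0.97), both turned without control replicate 3, and the interaction of Tmem47 against arterial and venous cells (-0.10). The fits without other-cell UMIs and with Plvap alone were chosen after seeing the data. With Gpihbp1 required no fit was made, as control rats had 2, 2 and 3 such cells. The 71272 control UMIs limit what can be found for low genes.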
